A study of Mus musculus with 12 samples.

Results

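Megakaryocyte and platelet genes were followed across arrays of LSK cells, sorted from bone marrow. LSK cells lack the surface markers of mature blood lineages and carry Sca1 and Kit, and blood stem cells and early progenitors are among them. The 9 genes are Selp, Itga2b, Gp5, Gp9, Treml1, Cd9, Pf4, Vwf and Thbs1, out of 22180 genes measured. They are known megakaryocyte or platelet genes and were selected on their log2 signal, which as a group is higher in Mll5-/- than in wild-type arrays, so their differences between genotypes are given as a description, with no test. Each gene is read by 1 probe set that names no other gene, the brightest over the 12 arrays. All mice were C57BL/6. They were wild type (Mll5+/+) or Mll5-/-, which lack Mll5 (gene symbol Kmt2e), a chromatin regulator. The mock mice went without N-acetyl-L-cysteine (NAC), a quencher of reactive oxygen species. The NAC mice drank water with 1 g per liter of it for life and were exposed before birth, since treatment began when their Mll5+/- parents were mated. Each of the 4 groups, genotype by NAC, had 3 arrays. The sources used here give no ages.

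Megakaryocytes are the large marrow cells that shed platelets. Their surface carries the receptors with which platelets stick to a damaged vessel wall and to each other, and their granules store proteins that are released when platelets are activated. Some of these genes are already transcribed in haematopoietic stem cells, where Vwf, Selp and Itga2b are known from cells with a bias toward platelets. Selp and Vwf are also genes of endothelial cells.

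RefSeq windows of GRCm38.p6, from 250 bases before to 50 after the annotated start, were found for 7 of the 9 genes. They were searched on both strands for AGATAA, a form of the GATA factors' site, GGAAGT, a form of the ETS factors' site, and TGTGGT, a form of the RUNX factors' site. The ETS letters were in 5 of 7 windows, those of Selp, Pf4, Itga2b, Gp5 and Gp9, and in 23.8% of all 32851 windows. The GATA letters were in 2 of 7, Pf4 and Gp5, and in 11.2% of all windows. The RUNX letters were in 1 of 7, Gp9, and in 16.8% of all. A match is a description of letters, not a bound site. The windows of Treml1 and Cd9 held no match and are not shown. The genotype differences of these genes over both treatments, 0.50 and 0.53, were above the 0.46 of Itga2b. Among the windows with a match, the 4 below belong to the genes with the largest genotype differences. They are written 5′ to 3′ on the strand of the gene, with matches on either strand in capitals. They are those of Selp at chr1:164115014-164115313 on the plus strand, Pf4 at chr5:90772185-90772484 on the plus strand, Itga2b at chr11:102469834-102470133 on the minus strand and Gp5 at chr16:30310732-30311031 on the minus strand.
Selp: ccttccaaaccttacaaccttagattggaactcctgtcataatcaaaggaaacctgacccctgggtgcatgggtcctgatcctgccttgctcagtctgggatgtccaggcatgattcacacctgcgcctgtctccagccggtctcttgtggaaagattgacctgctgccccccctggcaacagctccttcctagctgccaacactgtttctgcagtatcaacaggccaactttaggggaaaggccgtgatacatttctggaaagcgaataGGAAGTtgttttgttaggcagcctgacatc
Pf4: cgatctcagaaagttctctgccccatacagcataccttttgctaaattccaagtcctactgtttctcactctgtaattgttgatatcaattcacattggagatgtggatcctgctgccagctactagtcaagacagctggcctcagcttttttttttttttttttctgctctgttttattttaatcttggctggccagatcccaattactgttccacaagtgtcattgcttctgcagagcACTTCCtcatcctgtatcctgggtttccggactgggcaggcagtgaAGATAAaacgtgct
Itga2b: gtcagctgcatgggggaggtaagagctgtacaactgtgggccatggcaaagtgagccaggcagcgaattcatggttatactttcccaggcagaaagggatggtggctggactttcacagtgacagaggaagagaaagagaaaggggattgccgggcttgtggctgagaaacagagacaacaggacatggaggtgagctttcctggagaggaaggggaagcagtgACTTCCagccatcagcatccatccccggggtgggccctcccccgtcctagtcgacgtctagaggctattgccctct
Gp5: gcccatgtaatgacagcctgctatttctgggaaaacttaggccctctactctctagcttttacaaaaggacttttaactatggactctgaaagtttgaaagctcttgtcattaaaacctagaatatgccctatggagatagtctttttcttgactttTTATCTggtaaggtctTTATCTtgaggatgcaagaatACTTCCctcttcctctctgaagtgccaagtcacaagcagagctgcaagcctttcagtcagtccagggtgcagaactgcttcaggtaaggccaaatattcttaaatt
Counted from 0 at the annotated start, the leftmost base of the ETS letters was at 20 in Selp, -10 in Pf4, -26 in Itga2b, -56 in Gp5 and -240 in Gp9. The GATA letters were at 36 in Pf4 and at -93 and -77 in Gp5. None of these motifs overlapped another.

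The series as a whole sets the error of these values. The median log2 signal of an array lay between 2.89 and 2.96, and Pearson r across genes was 0.976 to 0.988 for pairs of arrays. The lowest weights in limma's array weighting were those of mutant NAC replicate 1 (0.54) and wild-type mock replicate 1 (0.71). Whether replicate arrays stand for separate mice is not in the labels, so every SE and p covers only variation among these samples, and that variation may be technical. Kmt2e, the targeted gene, had a log2 signal of 7.39 to 7.68 in wild-type mock, 6.93 to 7.51 in mutant mock, 7.37 to 7.78 in wild-type NAC and 7.01 to 7.33 in mutant NAC arrays. Since it is not known which part of Kmt2e was deleted, its signal is no check on genotype.

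Selp encodes P-selectin, an adhesion receptor that platelets and endothelial cells store in granules and bring to the surface when activated. It had log2 signals of 4.88, 4.66 and 4.81 in the 3 wild-type mock arrays and 5.06, 4.71 and 5.31 in wild-type NAC. In the mutant it had 6.51, 6.49 and 5.78 in mock and 5.90, 6.94 and 6.67 in NAC. Every mutant array was above every wild-type array, with mutant mock replicate 3 and mutant NAC replicate 1 the lowest of the mutants. The genotype difference was 1.48 on the log2 scale in mock (SE 0.26, 2.78-fold) and 1.48 in NAC (SE 0.26). The group means ran from wild-type mock (4.78) through wild-type NAC (5.03) and mutant mock (6.26) to mutant NAC (6.50). The first and the second of these overlapped in their arrays, as did the third and the fourth, whereas the second and the third did not. These arrays are of bulk RNA, in which more cells of a type and more RNA per cell cannot be told apart.

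The other members of the platelet surface are receptors of the adhesion machinery. Itga2b, the integrin subunit that binds fibrinogen, had log2 signals of 5.16, 5.14 and 5.14 in wild-type mock and 5.52, 5.56 and 5.63 in mutant mock arrays. With NAC it had 5.39, 5.07 and 4.74 in wild type and 5.80, 5.68 and 5.23 in the mutant. The mock groups did not overlap, and in NAC the lowest mutant array lay below the highest wild-type array. The genotype difference was 0.42 (SE 0.17) in mock and 0.50 (SE 0.17) in NAC. The order of the group means was wild-type NAC (5.07), wild-type mock (5.15) and then both mutant groups, at 5.57 each.

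Gp5 and Gp9 are subunits of the glycoprotein complex that binds von Willebrand factor. Gp5 had log2 signals of 4.56, 5.02 and 3.99 in wild-type mock, 5.05, 5.41 and 4.54 in mutant mock, 3.53, 4.31 and 4.30 in wild-type NAC and 4.26, 4.93 and 4.96 in mutant NAC arrays. All neighbouring groups overlapped, in the order wild-type NAC (mean 4.05), wild-type mock (4.52), mutant NAC (4.72) and mutant mock, the highest. Its genotype difference was 0.48 (SE 0.31) in mock and 0.67 (SE 0.31) in NAC. Gp9 had 6.07, 5.96 and 5.86 in wild-type mock, 5.58, 6.87 and 6.27 in mutant mock, 5.36, 5.87 and 5.64 in wild-type NAC and 5.77, 5.38 and 5.84 in mutant NAC arrays. Here the order was set by treatment before genotype, with both NAC groups (5.62 in wild type and 5.66 in the mutant) below both mock groups (5.96 and 6.24). Its genotype difference was 0.28 (SE 0.26) in mock and 0.04 (SE 0.26) in NAC. The direction in mock turned without mutant mock replicate 2 (-0.04), and in NAC without wild-type NAC replicate 1 (-0.09), mutant NAC replicate 1 (-0.01) or mutant NAC replicate 3 (-0.05).

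Treml1 and Cd9 are surface proteins of platelets, the first a receptor kept in their granules and the second a tetraspanin. Treml1 had log2 signals of 4.29, 4.72 and 4.78 in wild-type mock and 4.58, 5.02 and 4.92 in mutant mock, which overlapped. With NAC it had 4.09, 4.16 and 4.52 in wild type and 5.12, 4.67 and 5.27 in the mutant, which did not. The genotype difference was 0.24 (SE 0.20) in mock and 0.76 (SE 0.20) in NAC. Cd9 showed the same separation, with overlap in mock (6.10, 6.33 and 5.90 against 6.80, 6.61 and 6.02 in the mutant) and none in NAC (5.82, 6.23 and 5.61 against 6.66, 6.67 and 6.38). Its genotype difference was 0.37 (SE 0.21) in mock and 0.68 (SE 0.21) in NAC. Both genes ran in the order wild-type NAC, wild-type mock, mutant mock, mutant NAC, with means from 4.26 to 5.02 for Treml1 and from 5.89 to 6.57 for Cd9. Cd9 has a second probe set with log2 signals of 2.26 to 3.31, where the mutant minus wild-type difference was -0.04. With the mean of both probe sets the difference of Cd9 over both treatments was 0.24 in place of 0.53 (SE 0.15).

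Pf4 and Thbs1 had the largest spread within groups of the 9 genes. Pf4, a platelet chemokine, had log2 signals of 6.53, 5.91 and 5.40 in wild-type mock and 6.65, 6.83 and 5.27 in mutant mock arrays. With NAC it had 5.79, 6.13 and 5.95 in wild type and 7.91, 7.42 and 6.78 in the mutant. Mutant mock replicate 3 was lower than every wild-type array, while all 3 mutant NAC arrays were above all wild-type arrays. The genotype difference was 0.30 (SE 0.39) in mock and 1.41 (SE 0.39, 2.66-fold) in NAC. That in mock was 0.79 without mutant mock replicate 3. Leaving out replicate 2 of that group instead gave 0.01.

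Vwf, the large adhesive protein that tethers platelets to collagen, had the smallest spread of the members. Its log2 signals were 3.06, 3.30 and 3.32 in wild-type mock, 3.76, 3.49 and 3.22 in mutant mock, 3.25, 3.37 and 3.17 in wild-type NAC and 3.36, 3.51 and 3.52 in mutant NAC arrays. The signal is dim, near the median gene of these arrays (3.17), and whether this limits the difference the probe set can show was not tested. The genotype difference was 0.26 (SE 0.15) in mock and 0.20 (SE 0.15) in NAC, and the genotypes overlapped in both.

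Thbs1 encodes thrombospondin, an adhesive granule protein that macrophages and stromal cells make as well. It had log2 signals of 6.39, 5.10 and 4.36 in wild-type mock and 7.27, 6.06 and 4.36 in mutant mock arrays. With NAC it had 6.15, 5.58 and 5.77 in wild type and 5.06, 5.51 and 5.47 in the mutant, where every mutant array was below every wild-type array. The mock arrays of a genotype spanned more than the genotypes differed, and the SD within groups (0.91 pooled) exceeded that of 99.8% of genes. The genotype difference was 0.61 in mock and -0.49 in NAC (SE 0.60 each). It was -0.07 in mock without mutant mock replicate 1. Macrophage and stromal markers differed by a median of 0.07 between genotypes, with 9 of 12 higher in the mutant, and 7 of the 12 had a mean signal under the median gene. The largest differences were those of Mertk, a receptor for dying cells (0.24, SE 0.11), Cd68, a lysosomal protein of macrophages (0.18, SE 0.12), and Col1a1, a collagen chain (0.14, SE 0.11). Their mean log2 signal per array ran from 3.20 to 3.53 in wild-type mock, 3.42 to 3.43 in mutant mock, 3.41 to 3.49 in wild-type NAC and 3.43 to 3.6 in mutant NAC, and their part in the values of Thbs1 was not tested.

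**Figure D1:**
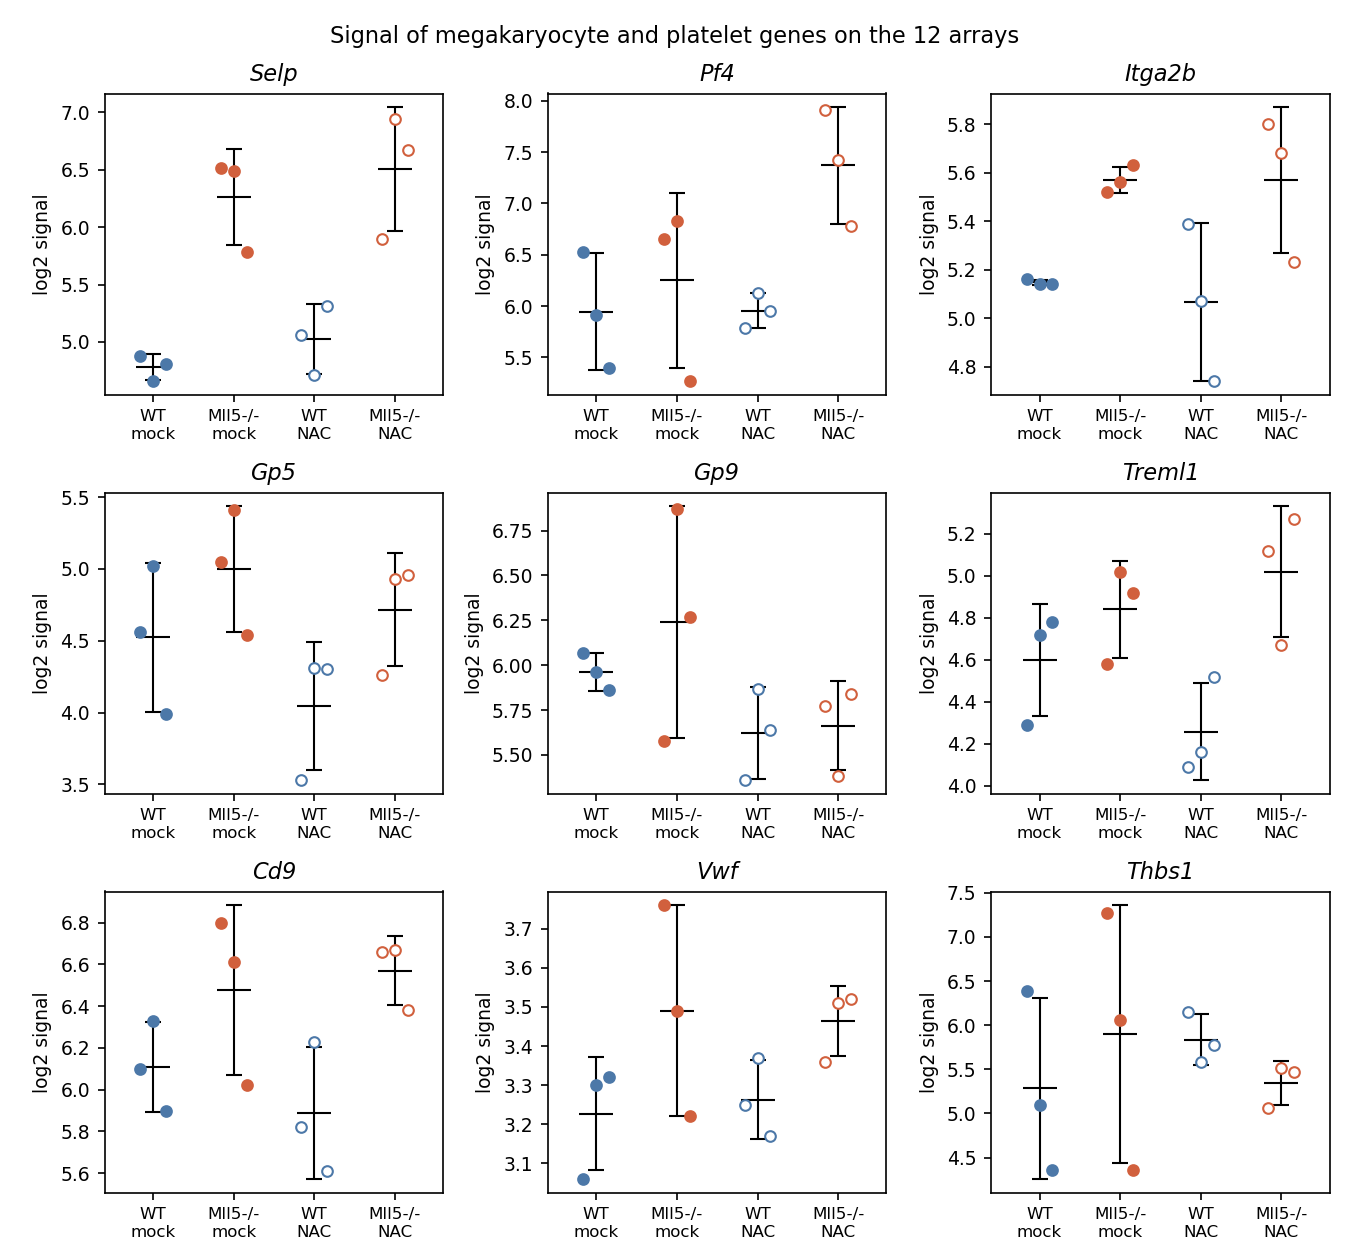
Log2 signal (vertical axis, a scale for each gene) of the 9 genes on every array, by genotype and treatment. Points are arrays in replicate order, filled for mock and open for NAC, with the group mean (horizontal line) and SD (bars, n = 3). All 6 mutant arrays of Selp, from 5.78 to 6.94, lie above its wild-type arrays, from 4.66 to 5.31, whereas the mock arrays of Thbs1 run from 4.36 to 7.27.

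Read together, all 9 genes had a higher mean in the mutant in mock, with a median log2 difference of 0.37, and 8 of 9 in NAC, with a median of 0.67. Over both treatments all 9 were higher by a median of 0.50, where the median over all genes was 0.00 and 50.5% were higher. The choice of the genes fixes this direction. The mutant and wild-type arrays did not overlap for 2 of 9 genes in mock, Selp and Itga2b (5.94% of all genes were separated in this way). In NAC they did not for 4 of 9, Selp, Pf4, Treml1 and Cd9 (6.39% of all genes), and Thbs1 was lower without overlap (6.05% of all genes were). Only Selp among the 9 had all 6 mutant above all 6 wild-type arrays, as did 0.311% of all genes. The median in mock was 0.60 without mutant mock replicate 3. Without both arrays of low weight 7 of 9 were higher in NAC. Thbs1 had a difference over both treatments of 0.06 (SE 0.42), and of -0.28 without mutant mock replicate 1.

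**Figure D2:**
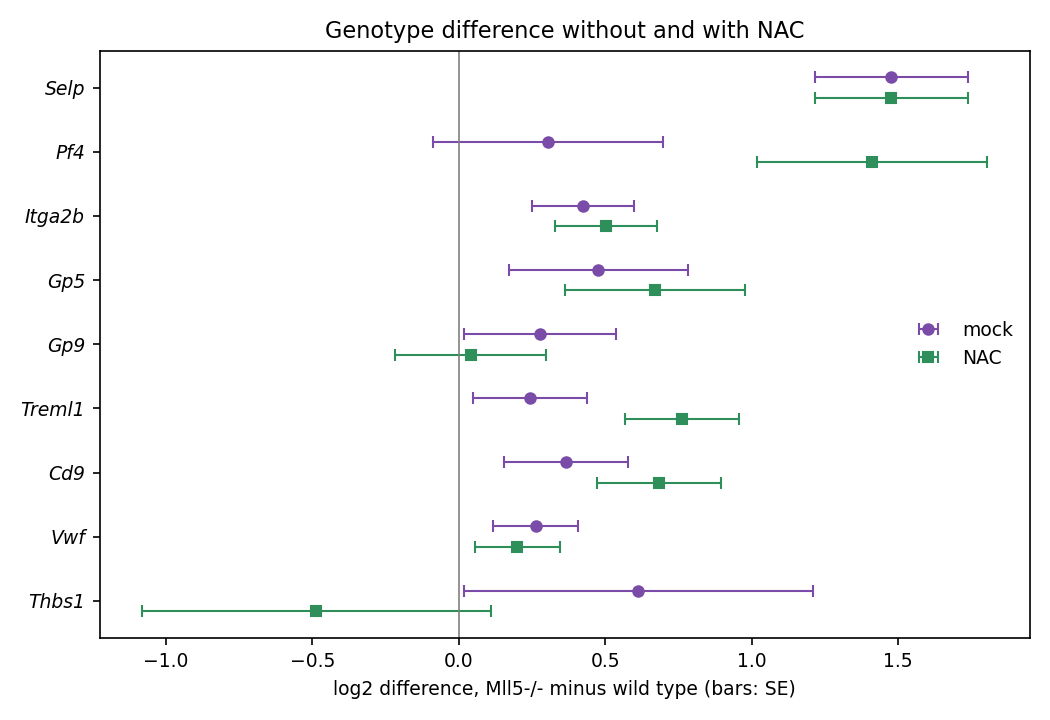
Log2 difference between Mll5-/- and wild type (horizontal axis) of each gene, in mock (circles) and in NAC (squares), with SE bars from the fit over all genes (3 arrays per group). Selp has the same difference of 1.48 in both treatments, Pf4 0.30 and 1.41, and Thbs1 0.61 and -0.49.

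The arrays of a group did not move as one. Averaged over the 9 genes and set against the wild-type mock mean, mutant mock replicates 1 and 2 stood at 0.68 and 0.75 on the log2 scale and replicate 3 at 0.05. The mutant NAC arrays stood at 0.47, 0.57 and 0.50, and the wild-type arrays between -0.22 and 0.16. Mutant mock replicate 3 was the lowest array of its group for 6 of 9 genes, Itga2b, Gp9 and Treml1 being the exceptions. Wild-type mock replicate 3 was the lowest of its group for 5 of 9. Among the 36 pairs of members the median Pearson r over the 12 arrays was 0.40, and 31 pairs were above 0. After each group mean was subtracted the median was 0.14, with 21 of 36 above 0. The pairs with the highest values over the 12 arrays were Cd9 with Vwf (r = 0.77) and Pf4 with Cd9 (r = 0.75), which also varied together within groups (0.66 and 0.72). The correlations are a description of 12 arrays that share the genotype by which the genes were chosen.

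By the same measure, the genes most like Selp over the 12 arrays were not members. They were Gtf3c6 (r = 0.92), a subunit of an RNA polymerase III factor, the tetraspanin Tspan32 (0.90), the adhesion molecule Clmp (0.88), the splicing factor Prpf8 (0.88), the vesicle tethering subunit Trappc6b (0.87) and the calcium channel subunit Cacna1f (0.86). Their genotype differences over both treatments were 0.25 to 0.39. Of the members, Vwf came nearest (r = 0.71, rank 189 of 18679 named genes), followed by Cd9 (0.66), Pf4 (0.61) and Itga2b (0.61), and Gp9 was the farthest (0.03). Within groups the ranking was another one, led by Nsd3 (0.96), Treml2 (0.95), Batf (0.94), Slc6a21 (0.92), Sema4a (0.91) and Cstdc2 (0.91). Of the members Thbs1 then came nearest (0.57), and Itga2b had -0.40. Each ranking takes the highest of 18679 genes over only 12 arrays, so a high r at its top is no evidence of a link with Selp.

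NAC against mock is a comparison that did not enter the choice of genes. In the mutant 4 of the 9 genes were higher with NAC, 4 were lower and Itga2b had a difference of 0.00. In wild type 4 were higher and 5 lower, with a median of -0.08. Pf4 had the largest difference in the mutant, 1.12 (SE 0.39, limma's adjusted p = 0.789), where the highest mock array (6.83) lay above the lowest NAC array (6.78), and 0.01 (SE 0.39, adjusted p = 0.997) in wild type. Without mutant mock replicate 3 the difference in the mutant was 0.63. Gp9 differed by -0.58 (SE 0.26, adjusted p = 0.841) in the mutant and -0.34 (SE 0.26, adjusted p = 0.900) in wild type. For Selp the difference was 0.24 in each genotype (SE 0.26), with 95% intervals from -0.32 to 0.81. Itga2b had an interval from -0.38 to 0.38 in the mutant and Vwf one from -0.34 to 0.29. Those of Thbs1 were wide, from -1.84 to 0.74 in the mutant and from -0.74 to 1.84 in wild type.

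Under limma with Benjamini-Hochberg adjustment over all genes, 0 of the 9 passed in the mutant (0.00451% of all genes did), in wild type (0.00902%) or over both genotypes (0.00451%). Unadjusted p under 0.05 were found for 2 of 9 in the mutant, Pf4 and Gp9, for 0 in wild type and for 1 over both, Gp9 (-0.46, SE 0.18). Of all genes 5.86%, 5.92% and 7.43% had such a p. Whether the genotype difference itself changed with NAC was tested as an interaction. It was 1.11 for Pf4 (SE 0.56), 0.52 for Treml1 (SE 0.28), -1.10 for Thbs1 (SE 0.84) and 0.00 for Selp (SE 0.37), with an adjusted p of 0.999 or more in limma. Without mutant mock replicate 3 that of Pf4 was 0.62 and that of Thbs1 -1.87, and without mutant mock replicate 1 that of Thbs1 was -0.41. Leaving out a wild-type mock array gave -1.65 (replicate 1) and -0.64 (replicate 3) for Thbs1. None of the 9 passed (0% of all genes did) and 0 had an unadjusted p under 0.05. The separation of Pf4, Treml1 and Cd9 in NAC and not in mock is therefore not shown to differ between treatments.

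**Figure D3:**
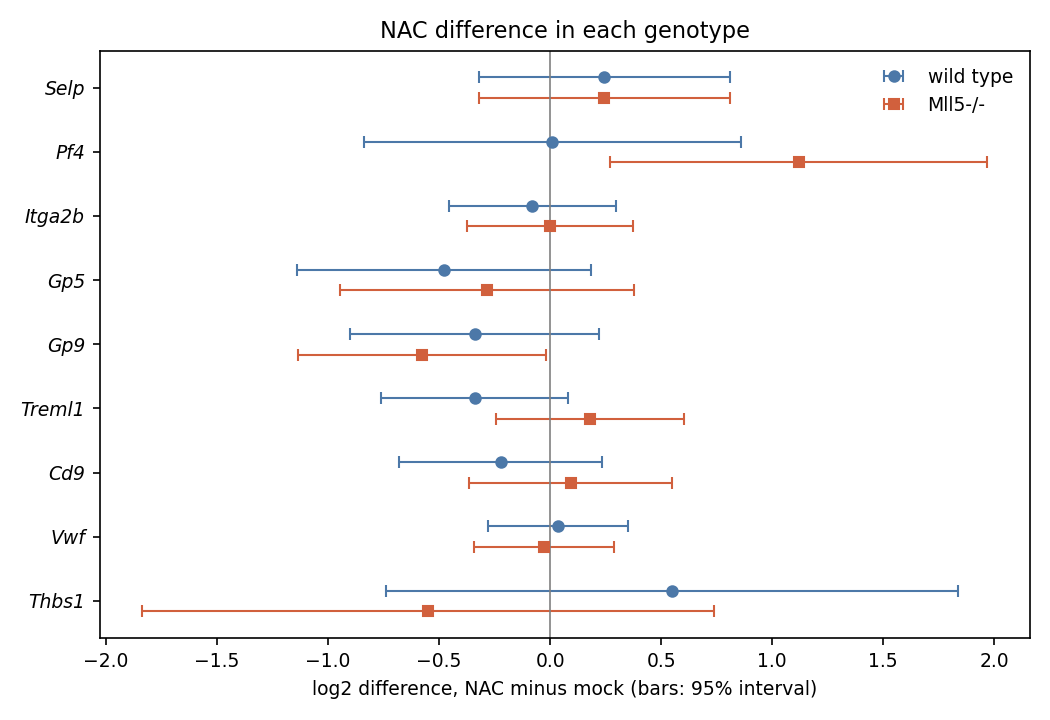
Log2 difference between NAC and mock (horizontal axis) of each gene in wild type (circles) and Mll5-/- (squares), with 95% intervals from the fit over all genes (3 arrays per group). The intervals of 16 of the 18 differences include 0. Those of Pf4 (0.27 to 1.97) and Gp9 (-1.14 to -0.02) in the mutant do not before adjustment.

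Other genes were read from lists without the 9, for platelets, megakaryocytes, platelet-biased stem cells and the selectin system, whose genes also act in endothelium and leukocytes. Of the 114 genes of these lists 71 were higher and 43 lower in the mutant over both treatments, with a median log2 difference of 0.05. None passed limma's test over all genes (0.00902% of all genes did). Unadjusted p under 0.05 were found for 20 of 114, 12 higher and 8 lower, where 9.08% of all genes had one. Genes of the platelet surface had a median of 0.05 with 15 of 23 higher. Ptger3, a prostaglandin receptor, differed by 0.51 (SE 0.13), and Tbxa2r, the thromboxane receptor, by -0.46 (SE 0.16). Fcer1g, the signalling chain of the collagen receptor, differed by -0.44 (SE 0.13). Itgb3, the integrin partner of Itga2b, had 0.29 (SE 0.16), and Gp6, the collagen receptor, 0.13 (SE 0.11).

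Granule genes had a median of 0.03, with 14 of 24 higher. Timp3, a protease inhibitor, differed by 0.47 (SE 0.21), Plek, a major substrate of protein kinase C in platelets, by -0.46 (SE 0.09) and Vegfa, an angiogenic factor, by -0.43 (SE 0.20). The difference of Vegfa was 0.02 in mock and -0.88 in NAC. Genes of the cytoskeleton and signalling had a median of 0.09, with 14 of 19 higher. Tuba8, a tubulin, differed by 0.50 (SE 0.13), the G protein subunit Gng11 by 0.39 (SE 0.16) and Rasgrp2, which activates platelet integrins, by -0.35 (SE 0.12). Tubb1, the tubulin of the platelet rim, and Clec1b, the podoplanin receptor, had mean signals of 2.03 to 2.37 in every group, under the median gene. Ppbp, the platelet chemokine next to Pf4, had 2.60 to 2.99 and also lay under it. How far so dim a signal limits a genotype difference was not tested.

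The transcription factors of megakaryocytes had a median of -0.03, with 9 of 19 higher. Gata1, the factor that drives the lineage, differed by 0.25 (SE 0.14, adjusted p = 0.609 in limma), and its cofactor Zfpm1 by 0.26 (SE 0.14). The difference of Zfpm1 was 0.02 in mock and 0.49 in NAC. Fli1, an ETS factor of platelet genes, differed by 0.13 (SE 0.11), whereas Ets1 differed by -0.57 (SE 0.11, adjusted p = 0.129) and Runx1 by -0.29 (SE 0.12). Under NAC 16 of these 19 factors were lower in the mutant (median -0.21) and 13 of 19 in wild type (median -0.13), where the median of all genes was 0.00, and none passed in either. Their mean log2 signal per array was 7.105 to 7.142 in mutant mock and 6.728 to 7.064 in mutant NAC. In wild type it was 7.106 to 7.171 in mock and 6.9 to 7.027 in NAC. These NAC counts were not repeated with an array left out. In wild type Gfi1b had -0.59 (SE 0.20), Zfpm1 -0.53 (SE 0.20) and Tal1 -0.50 (SE 0.19). In the mutant the same genes had -0.15 (SE 0.20), -0.06 (SE 0.20) and -0.05 (SE 0.19), and their interactions had an adjusted p of 0.999. These genes were among the 7 of 19 factors with a positive interaction, and 12 had a negative one (median -0.07). Among those 12, Mafk had means of 5.69 in mutant mock and 5.34 in mutant NAC, against 5.32 and 5.69 in wild type. Runx1 had 8.19 and 7.79 in the mutant, against 8.41 and 8.15 in wild type. The mutant NAC arrays were 4.97, 5.50 and 5.54 for Mafk and 7.39, 8.09 and 7.88 for Runx1. Both were lowest in replicate 1, the array of lowest weight (0.54), whereas Meis1 and Mef2c were highest in it.

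Genes of the selectin system had a median difference of 0.00 between genotypes, with 4 of 8 higher. Selplg, the ligand of P-selectin on leukocytes, differed by -0.25 (SE 0.15) and Gcnt1, which builds the core glycan of that ligand, by 0.17 (SE 0.13). Fut4, a fucosyltransferase, had 0.09 (SE 0.11). Genes known to be higher in old or platelet-biased stem cells had a median of 0.09, with 17 of 23 higher. Clca3a1 differed by 0.50 (SE 0.13), from a wild-type mean of 1.98, and Gstm2, a glutathione transferase, by 0.42 (SE 0.15), from one of 2.67. Both are dim, among the 10 of 23 with a mean under the median gene. Clca3a1 had 0.11 in mock and 0.89 in NAC. Gda, guanine deaminase, differed by -0.38 (SE 0.30) over both treatments. Itgb3 and Clu are on 2 of these lists and were counted once among the 114.

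**Figure D4:**
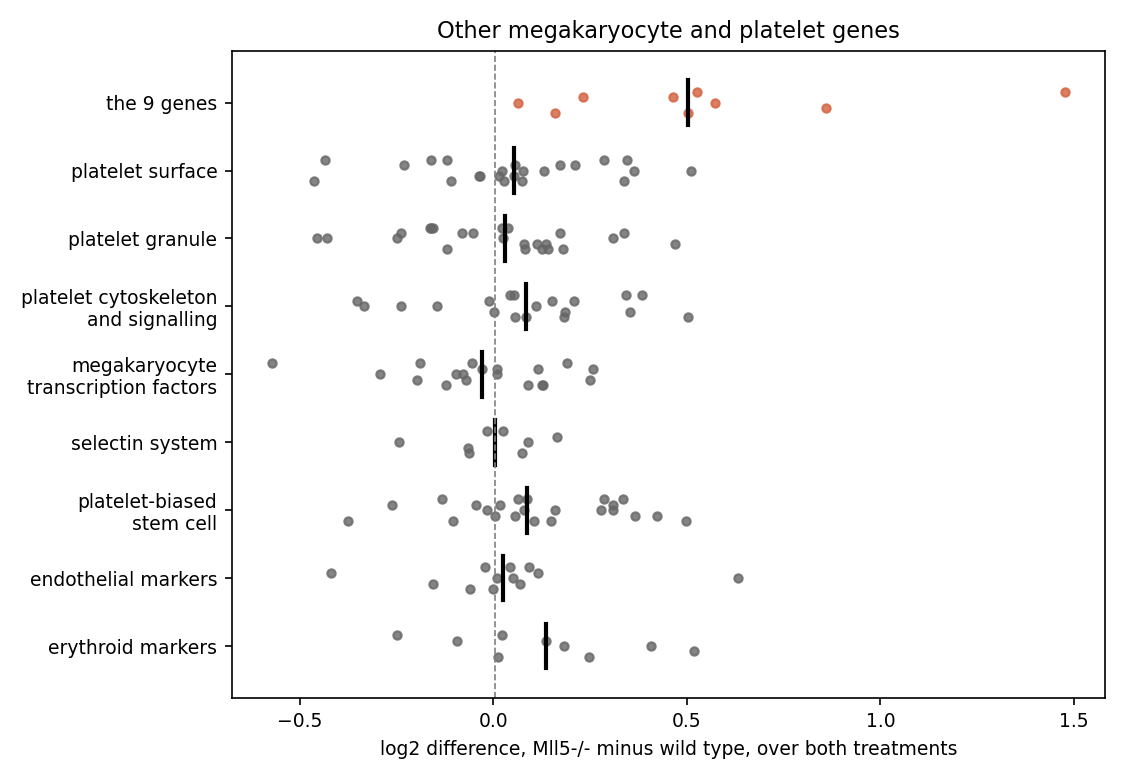
Log2 difference between Mll5-/- and wild type over both treatments (horizontal axis, 6 arrays each) for the 9 genes and for lists of other genes. Each point is a gene, black bars are list medians and the dashed line is the median of all genes (0.00). The 9 genes were chosen for this difference and have a median of 0.50, and the medians of the other lists plotted lie between -0.03 and 0.14.

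Markers of other cells were read beside these values. Endothelial markers, which matter for Selp and Vwf, had a median genotype difference of 0.03, with 7 of 12 higher, and 6 of the 12 had a mean under the median gene. Their mean log2 signal per array was 3.71 to 3.90 in wild-type mock, 3.79 to 3.98 in mutant mock, 3.67 to 3.76 in wild-type NAC and 3.65 to 3.82 in mutant NAC. Cdh5, the cadherin that defines endothelium, had group means of 2.73 to 2.99. Tie1, a receptor of endothelial and stem cells, differed by 0.63 (SE 0.16) and Emcn, a sialomucin, by -0.42 (SE 0.14). The difference of Emcn was -0.14 in mock and -0.70 in NAC. Icam2, an adhesion molecule, differed by -0.16 (SE 0.12). Erythroid markers had a median of 0.14, with 7 of 9 higher, among them Ermap with 0.52 (SE 0.22) and Car1 with 0.41 (SE 0.34), and Ank1, the red cell ankyrin, had -0.25 (SE 0.19). Their mean signal was 4.67 to 5.12 in wild-type mock, 4.74 to 5.15 in mutant mock, 4.88 to 5.31 in wild-type NAC and 5.13 to 5.62 in mutant NAC. The genotype difference of Car1 was -0.09 in mock and 0.91 in NAC. None of these markers passed limma's test between genotypes (0.00902% of all genes did). An unadjusted p under 0.05 was found for 4 of 21, where 9.08% of all genes had one. The part of these markers in the values of the 9 genes was not tested.

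Lineage markers had a median of -0.11, with 2 of 11 higher. In limma 1 of 11 had an unadjusted p under 0.05, where 9.08% of all genes had one. S100a8, a neutrophil protein, differed by -1.05 over both treatments (SE 0.32, adjusted p = 0.339 in limma). In mock it differed by -1.61 (SE 0.45), where the genotypes did not overlap and the mutant arrays ran from 6.31 to 8.71. With NAC the difference of S100a8 was -0.497, and the mutant arrays (8.55 to 9.54) overlapped the wild-type arrays (9.31 to 9.82). Elane, neutrophil elastase, differed by -0.64 (SE 0.33) and Klrb1c, a receptor of natural killer cells, by -0.28 (SE 0.15) over both treatments. The difference of Klrb1c was -0.46 in mock and -0.09 in NAC. Markers of the sorted fraction and its stem cells had a median of -0.06, with 4 of 11 higher. In limma 4 of 11 had an unadjusted p under 0.05, where 9.08% of all genes had one. Of these 4, 1 was higher and 3 were lower in the mutant. Flt3, a receptor of multipotent progenitors, differed by -0.74 (SE 0.17, adjusted p = 0.225 in limma), with every mutant array below the wild-type arrays of its treatment. Procr differed by 0.34 (SE 0.14) and Slamf1 by 0.34 (SE 0.21), both surface markers of stem cells. The difference of Slamf1 was 0.09 in mock and 0.58 in NAC. Hlf, of the same list, went the other way, with group means of 7.66 in wild-type mock and 7.36 in mutant mock. With NAC its means were 7.23 in wild type and 6.92 in the mutant. None of these genes passed (0.00902% of all genes did), and their part in the values of the 9 genes was not tested. Kit, which defines the sorted fraction, had group means of 8.81 to 9.21. It differed by -0.17 between genotypes over both treatments (SE 0.08). In NAC it differed by -0.25 (SE 0.11), with every mutant array below every wild-type array, as for 6.05% of all genes.

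The 9 genes lie on 7 chromosomes. Among measured genes in the order of the GRCm38.p6 annotation, Cd9 and Vwf are next to each other on chromosome 6. The other 16 neighbours, 1 on each side of a gene, had genotype differences from -0.30 to 0.42 over both treatments, with 11 higher and 5 lower. None passed limma's test (0.00902% of all genes did) and 1 of 16 had an unadjusted p under 0.05, a share near the 9.08% of all genes. Next to Selp are Sele, the E-selectin of endothelium (-0.02, SE 0.25), and Gm16548 (0.42, SE 0.23). Next to Pf4 are Ppbp (0.08, SE 0.22) and Cxcl3, a neutrophil chemokine (-0.06, SE 0.18).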

How the data were processed

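RNA from 12 samples was hybridised to Affymetrix arrays. The authors deposited log2 signals, and the submitters' processing notes name Affymetrix Power Tools and RMA, without versions. RMA subtracts background, forces arrays to 1 distribution and fits a summary per probe set, so a shift of all genes would not show. The log base was inferred as 2 from the range, 0.74 to 13.23. Of 41345 probe sets 23521 name 1 gene symbol, and the brightest per symbol was kept, for 22180 genes, with no filter on dim genes. Group means were estimated over the 12 arrays in limma 3.58.1 (R 4.3.3), using lmFit and eBayes, with Benjamini-Hochberg adjustment over all genes of a comparison at 0.05. The procedure was tested on simulated data. The median SE of a difference between groups of 3 arrays was 0.16. Groups come from the labels.

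The 9 genes and all lists were chosen with earlier results of these data known. Named were the 9, Kmt2e, Kit, the 3 largest genotype differences of each list, the 6 genes most like Selp by each measure and the neighbours of Selp and Pf4. Further list genes were picked after their values had been seen. Likeness was ranked without predicted or clone-named genes. Alternatives were a filter at the median level, median centring, trend and robust variance, a fresh quantile normalization, array weights, averaging the probe sets of a symbol, only the compared groups, the replicate number as a block, each array left out, both arrays of low weight left out and an adjusted p under 0.10. The replicate numbers did not pair arrays: of 18 pairs with the same number, 0 had deviations correlated over 0.1 (range -0.06 to 0.06).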

Additional observations from a re-analysis of the deposited data

How the results depend on the processing

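The values of the 9 genes, the counts of all genes called and the genotype differences of the 114 other genes were recomputed. NAC counts of the other lists were not included. There were 22 alternatives, 12 of which left out 1 array. No member passed in any NAC comparison or in the interaction under any of them, and 0 of the 114 other genes passed between genotypes. The median genotype difference of the 9 genes was 0.26 to 0.60 in mock, 0.55 to 0.72 in NAC and 0.46 to 0.53 over both when 1 array was left out, and 8 or 9, 7 or 8 and 8 or 9 of them were higher.

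The count of all genes called moved most. Between genotypes over both treatments it was 2, and 4 with array weights or without both arrays of low weight, 12 at an adjusted p under 0.10, and 1 to 7 without 1 array. With the replicate block it was 1, and the block changed no other count. For NAC in the mutant it was 1, and 2 with fresh quantile normalization or array weights, 0 without both arrays of low weight, 3 at 0.10 and 0 to 2 without 1 array. For NAC in wild type it was 2, and 1 with only the compared groups and 1 to 5 without 1 array. Over both genotypes it was 1, and 3 without both arrays of low weight and 1 to 4 without 1 array, and for the interaction 0 to 2. The causes were not tested.

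Some NAC differences and interactions, none of which passed the test, turned sign. For NAC in the mutant, Cd9 was -0.065 with the mean of its probe sets and -0.14 to 0.26 without 1 array. Vwf was 0.0039 with quantile normalization, 0.0046 with array weights, 0.025 without both arrays of low weight and -0.16 to 0.11 without 1 array, and Thbs1, at -0.55 with all arrays, was -1.32 to 0.14. For NAC in wild type, Pf4 was -0.0033 after centring and -0.26 to 0.30 without 1 array, Vwf -0.047 without both arrays of low weight and -0.047 to 0.083 without 1, and Itga2b -0.24 to 0.083. For the interaction without both arrays of low weight, Itga2b was -0.042 and Vwf 0.072. Without 1 array Itga2b was -0.083 to 0.25, Gp5 -0.065 to 0.46, Gp9, at -0.24 with all arrays, -0.57 to 0.078 and Vwf -0.20 to 0.072.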

Other observations

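Markers of the sorted fraction and its stem cells were lower with NAC in most cases, without a call. In the mutant 8 of 11 were lower, with a median of -0.32, and in wild type 10 of 11, with a median of -0.24, where the median over all genes was 0.00. Their mean log2 signal per array was 7.47 to 7.594 in mutant mock and 7.064 to 7.375 in mutant NAC. In wild type it was 7.371 to 7.74 in mock and 7.329 to 7.4 in NAC, which overlapped. Cd34 had 9.87 in mutant NAC replicate 1, the array of lowest weight, and 10.33 and 10.32 in the others. Cd48 and Meis1 were highest in that array. No array was left out for these counts. In limma 0 of 11 passed in either, and 7 in the mutant and 1 in wild type had an unadjusted p under 0.05, where 5.86% and 5.92% of all genes did. Kit, the receptor that defines the fraction, differed by -0.30 (SE 0.11) in the mutant and by -0.15 (SE 0.11) in wild type. Erythroid markers went the other way, with 6 of 9 higher in the mutant (median 0.21) and 7 of 9 in wild type (median 0.25). These values stand beside those of the 9 genes, of which 4 were higher with NAC in each genotype, and their relation was not tested.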
